A study of Arabidopsis thaliana with 6 samples.

Results

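The Aurora kinases AUR1 (AT4G32830), AUR2 (AT2G25880) and AUR3 (AT2G45490) and the spindle checkpoint protein BUBR1 (AT2G33560) were followed in dividing cells of the Arabidopsis thaliana root. They were taken by gene identity, as the probe sets that the array annotation maps to exactly 1 of these genes. They are 4 of the 13286 genes that such probe sets name on this array. Each had 1 probe set among the 22746 tested, so no choice between probe sets was needed. All plants were of accession Col-0. One group held G2/M cells, isolated from roots with a CYCB1;1-GFP reporter by FACS, sorting of single cells on their fluorescence (3 arrays), and the other held complete root meristems microdissected under a microscope (3 arrays). CYCB1;1 is a cyclin of mitosis, so the sort takes cells by the reporter, and the labels name no plant age. The comparison asks which transcripts are enriched in cells at this stage over the meristem as a whole, which holds every cell cycle phase and tissue layer.

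Aurora kinases phosphorylate chromosomes, the spindle and the division apparatus during mitosis. In Arabidopsis AUR1 and AUR2 form the alpha class, which acts on the spindle and on the orientation of the division plane. AUR3 is the beta class, which sits at centromeres and phosphorylates histone H3. BUBR1 belongs to the BUB1 and MAD3 family of the spindle assembly checkpoint, the surveillance system that holds anaphase back until every kinetochore is attached to the spindle. BUBR1 is called a checkpoint protein here, and whether it carries a kinase domain was not examined.

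Values were the authors' GCRMA values on the log2 scale, so a step of 1 is a 2-fold step. The lowest value in the table was 2.27, a background level. Differences are sorted cells minus meristem, from a limma fit over all probe sets with Benjamini-Hochberg adjustment. A gene was called where its adjusted p was under 0.05. Correlations between arrays lay between 0.996 and 0.997 within the meristems and between 0.967 and 0.989 within the sorted cells. Over the 11503 probe sets with a mean above the median value, the spread between replicates was 0.44 log2 in sorted cells and 0.19 log2 in meristems (root mean square SD, n = 3 each). Poly-A spike-in signal was present on the 3 meristem arrays and on sorted replicate 1 (means of 5.81 to 7.27 over 24 control probe sets), and was low on sorted replicates 2 and 3 (3.13 and 2.97). The series calls the replicates biological, without saying how the plants were divided among them, so a p-value here covers the spread among these arrays. The limma fit as reported takes the same spread for both groups. Its intervals and p-values thus do not allow for the wider spread of the sorted cells.

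All 4 transcripts rose in the sorted cells, from 3.73-fold for AUR3 to 6.63-fold for BUBR1. All 4 were called higher, against a background of 4.44% of all probe sets. The genes were chosen with earlier results of these data known, so this count describes them and is no independent test. With the replicate number as a block limma called 0 of the 4 (adjusted p from 0.0689 to 0.130), and all 4 had an unadjusted p under 0.05. On each of the 4 probe sets every sorted array lay above every meristem array, which held for 14.4% of all probe sets. In these bulk samples more cells that express a gene and more RNA per cell cannot be told apart. Sorting and dissection also differed between the groups, and handling and cell content cannot be told apart.

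AUR1, an alpha Aurora kinase, had values of 8.90, 9.58 and 9.36 in sorted replicates 1, 2 and 3. In meristem replicates 1, 2 and 3 it had 7.14, 7.27 and 7.16. The meristems lay close together, and the lowest sorted array was 1.63 log2 above the highest meristem. The means were 9.28 ± 0.35 and 7.19 ± 0.07 (SD, n = 3 each). AUR1 rose by 2.09 log2 (SE 0.20, 95% interval 1.57 to 2.61, limma adjusted p = 0.00851; 0.0689 with the replicate block), or 4.26-fold.

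AUR2, the other alpha kinase, had 9.03, 9.70 and 9.36 in sorted replicates 1, 2 and 3, and 7.0, 6.80 and 6.88 in the meristems. Its gap between the groups was 2.03 log2, the widest of the 4 genes. The means were 9.36 ± 0.34 and 6.89 ± 0.10 (SD, n = 3 each). AUR2 rose by 2.47 log2 (SE 0.19, 95% interval 1.95 to 2.99, limma adjusted p = 0.00594; 0.0821 with the replicate block), or 5.54-fold. RefSeq lists 4 transcripts for AUR2, 1 for AUR1 and 2 each for AUR3 and BUBR1, and a single probe set does not tell transcripts of a gene apart. AUR1 and AUR2 are close relatives, and how far each probe set also reads the other gene was not tested.

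AUR3, the beta kinase, had 6.26, 7.16 and 6.86 in sorted replicates 1, 2 and 3. In the meristems it had 5.02, 4.91 and 4.65, which is 2.59 log2 above the lowest value of the table on average. The groups were separated by 1.24 log2, the narrowest gap of the 4 genes. The means were 6.76 ± 0.46 and 4.86 ± 0.19 (SD, n = 3 each). AUR3 rose by 1.90 log2 (SE 0.27, 95% interval 1.17 to 2.63, limma adjusted p = 0.0226; 0.130 with the replicate block), or 3.73-fold.

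BUBR1 had 6.66, 7.70 and 7.34 in sorted replicates 1, 2 and 3, and 4.65, 4.31 and 4.55 in the meristems. The groups were 2.01 log2 apart at their nearest arrays, and the meristem mean stood 2.23 log2 above the lowest value. The means were 7.23 ± 0.53 and 4.50 ± 0.17 (SD, n = 3 each). BUBR1 rose by 2.73 log2 (SE 0.31, 95% interval 1.91 to 3.55, limma adjusted p = 0.0126; 0.110 with the replicate block), or 6.63-fold with an interval of 3.75-fold to 11.7-fold.

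**Figure D1:**
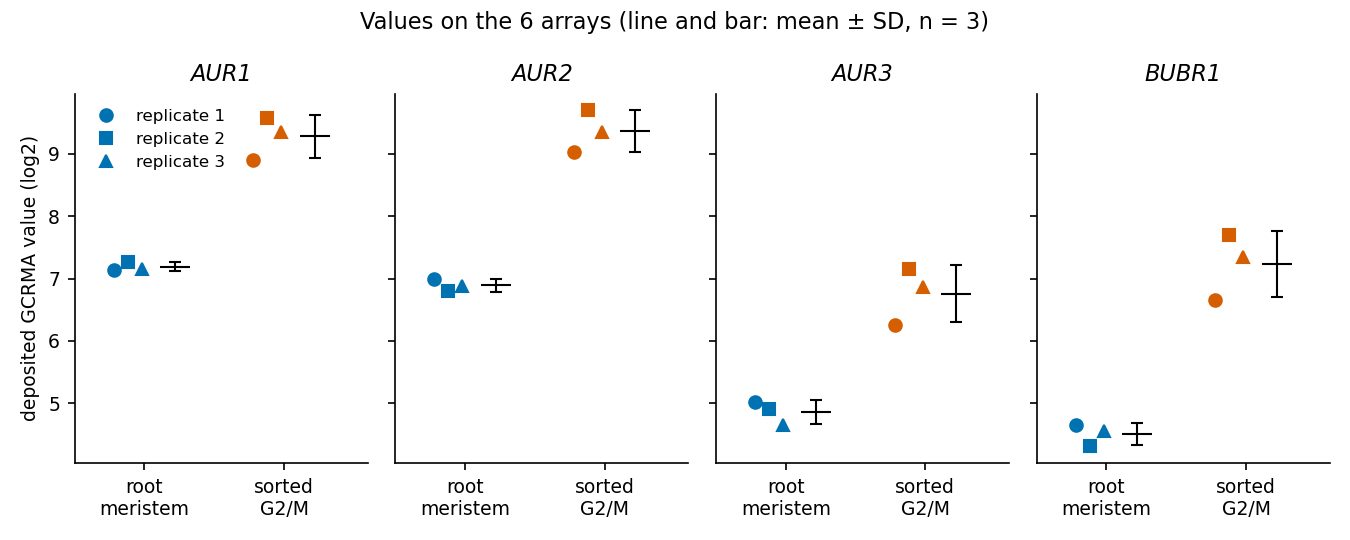
Deposited log2 values of AUR1, AUR2, AUR3 and BUBR1 on the 3 root meristem arrays (blue) and the 3 sorted G2/M arrays (orange), with symbols for the replicate and the mean ± SD beside them. The sorted arrays lie above the meristem arrays in every panel, by at least 1.24 log2, and spread more widely than the meristems.

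The differences lay in the upper tail of the table. A larger difference was found for 0.611% of all probe sets beside BUBR1, 0.866% beside AUR2, 1.31% beside AUR1 and 1.58% beside AUR3. Ranked by p, the order of the 4 changed. AUR2 stood at 460, AUR1 at 693, BUBR1 at 1022 and AUR3 at 1593 of 22746. BUBR1 thus had the highest difference of the 4 and also the highest SD among its sorted arrays.

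**Figure D2:**
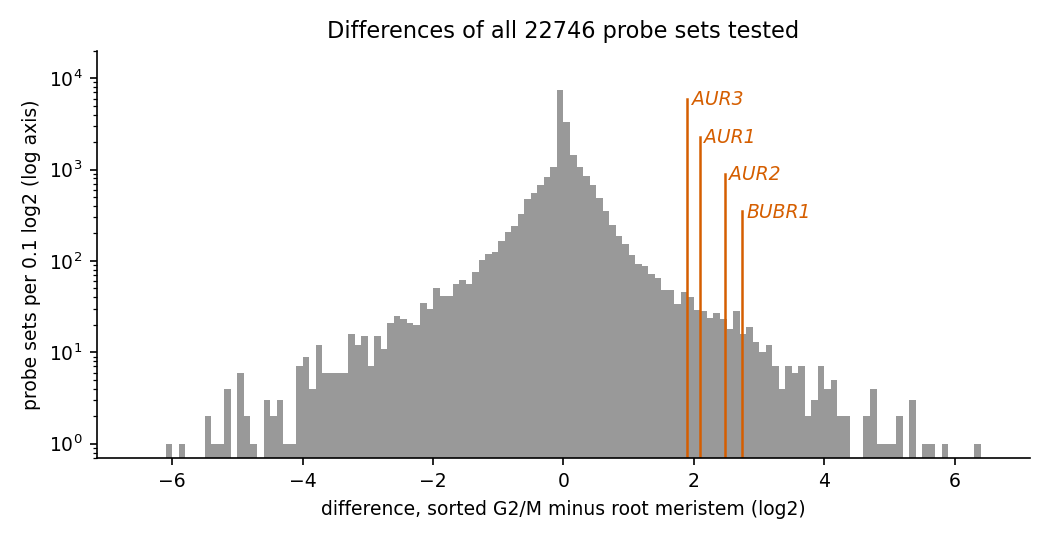
Number of probe sets (log axis) by their difference between sorted G2/M cells and root meristem (log2, in steps of 0.1), with the 4 genes as orange lines. The genes lie between 1.90 and 2.73, in the right tail of the 22746 probe sets.

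The size of the rise varied from one sorted array to the next, and in the same way for all 4 genes. Relative to its own meristem mean, AUR1 was higher by 1.71, 2.39 and 2.17 log2 in sorted replicates 1, 2 and 3. AUR2 was higher by 2.14, 2.81 and 2.47, AUR3 by 1.40, 2.30 and 2.00, and BUBR1 by 2.16, 3.197 and 2.84. Sorted replicate 1 was thus the lowest and sorted replicate 2 the highest for each gene. That order was common in the table. It held for 25.4% of all 22746 probe sets tested. The share was 44.3% of the 11503 probe sets above the median value and 51.3% of the 1009 called higher. The median step from sorted replicate 1 to sorted replicate 2 was 0.22 log2 over the probe sets called higher and 0.79 log2 over the 4 genes. The sorted SD was 4.96 times the meristem SD for AUR1, 3.33 times for AUR2, 3.02 times for BUBR1 and 2.41 times for AUR3.

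With the spike-in split as a block, the estimate rests on sorted replicate 1 alone against the meristems. Its error comes from the spread among the meristems and between sorted replicates 2 and 3, and the lone array is assumed to vary like them. The differences were then 1.71 log2 for AUR1 (limma adjusted p = 0.00823), 2.14 for AUR2 (0.0121), 1.40 for AUR3 (0.0429) and 2.16 for BUBR1 (0.0197). All 4 were called, against 7.17% of probe sets called higher in that fit. Leaving that array out gave 2.28, 2.64, 2.15 and 3.02 log2 in the same order, and again all 4 were called, against 7.7% of probe sets.

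The same-numbered arrays differed in 1 direction throughout, which follows from the gap between the groups given above. AUR1 was higher by 1.76, 2.31 and 2.20 log2 in the sorted array of pairs 1, 2 and 3, and AUR2 by 2.03, 2.90 and 2.48. AUR3 was higher by 1.24, 2.25 and 2.21, and BUBR1 by 2.01, 3.39 and 2.79. The fit with the replicate number as a block, in which none of the 4 was called, leaves 2 residual degrees of freedom. In that fit 0.347% of all probe sets were called higher.

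Both alpha kinases kept their calls when any 1 array was left out (adjusted p up to 0.0498 and 0.0390). AUR3 and BUBR1 lost theirs without sorted replicate 3 (0.0969 and 0.0647), without meristem replicate 1 (0.0840 and 0.0594), without meristem replicate 2 (0.0976 and 0.0662) and without meristem replicate 3 (0.0902 and 0.0615). Their differences in those fits stayed between 1.80 and 1.98 log2 for AUR3 and between 2.63 and 2.80 log2 for BUBR1. The share of all probe sets called higher in these 4 fits was 1.83%, 1.58%, 1.42% and 1.75%.

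**Figure D3:**
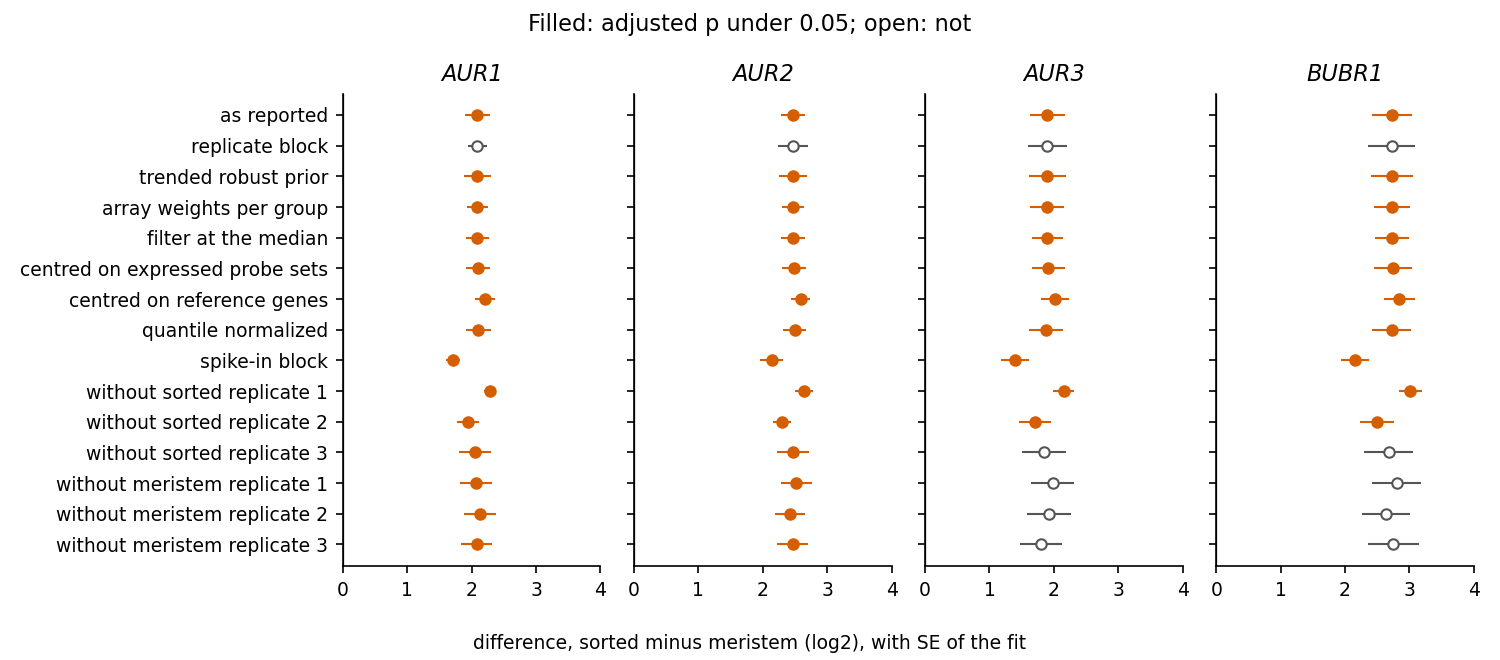
Difference between sorted cells and meristem (log2, point with the SE of the fit) for each gene as reported and under 14 alternatives, filled where the adjusted p was under 0.05. All points lie between 1.40 and 3.02 log2. All 4 genes are open with the replicate block, and AUR3 and BUBR1 are open in 4 of the 6 fits with 1 array left out.

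The 4 rises were compared with one another within each array, which cancels what an array adds to all probe sets alike. The change of BUBR1 exceeded that of AUR3 by 0.83 log2 (SE 0.15), by 0.76, 0.90 and 0.84 in sorted replicates 1, 2 and 3. BUBR1 exceeded AUR1 by 0.64 log2 (SE 0.18), with 0.45, 0.81 and 0.67 on those arrays. AUR2 exceeded AUR3 by 0.57 log2 (SE 0.13) and AUR1 by 0.38 log2 (SE 0.10). In each of these 4 pairs the sorted and meristem arrays did not overlap. How often other pairs of genes separate in this way was not examined. An exact permutation test (two-sided) gave p = 0.10, the smallest that 3 against 3 allows, or 0.15 after adjustment over the 6 pairs, so no pair could pass the threshold.

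The remaining pairs overlapped between the groups. AUR1 exceeded AUR3 by 0.19 log2 (SE 0.13) and BUBR1 exceeded AUR2 by 0.26 log2 (SE 0.13), each with an exact permutation p of 0.30. For BUBR1 over AUR2 the 3 sorted arrays gave 0.02, 0.39 and 0.37. AUR1 and AUR2 moved closely together among the sorted arrays, in the array order that many probe sets share. The SD of the difference between AUR2 and AUR1 over these arrays was 0.07 log2, beside 0.35 and 0.34 for each alone. The same held between BUBR1 and AUR3, with an SD of 0.07 for their difference beside 0.53 and 0.46. In the other pairs it ran from 0.11 (AUR1 and AUR3) to 0.21 (BUBR1 and AUR2). The meristem arrays did not show this. There the SD of the difference was 0.17 for AUR2 and AUR1, beside 0.10 and 0.07 for each alone. For BUBR1 and AUR3 it was 0.25, beside 0.17 and 0.19.

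Genes of the same machinery were taken from lists written from general knowledge, with earlier results of these data known. Their counts therefore describe these genes and are no independent support. Together the lists of the spindle checkpoint, Aurora partners, Aurora substrates, kinetochore, anaphase-promoting complex, cohesion, mitotic kinases and mitotic microtubule proteins held 89 genes besides the 4. Of these 17 were measured by a probe set that names no other gene, and 7 were called higher, 0 lower and 10 not called. Over all probe sets 4.44% were called higher and 7.06% lower. The median difference was 0.65 log2 over the 17 and 0.00 over all probe sets tested. The lists of cohesion and of microtubule proteins had no such probe set and were not analysed here. In the annotation used here 8730 of the 22746 probe sets tested are unnamed. Genes counted as not measured may therefore still be on the array. With the replicate block limma called 0 of the 17, with 10 at an unadjusted p under 0.05, and 0.347% of all probe sets were called higher.

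Most measured genes of the spindle checkpoint list were called higher. Of its 14 genes 5 were measured, of which 4 were called higher and 1 was not, with a median difference of 1.57 log2. Over all probe sets 4.44% were called higher. BUB3.1, a WD-repeat partner of the BUB1 family, had 9.02, 9.68 and 9.53 in the sorted cells and 7.89, 7.74 and 7.75 in the meristems. It rose by 1.62 log2 (SE 0.20, limma adjusted p = 0.0152; 0.115 with the replicate block), or 3.07-fold. Its relative BUB3.2 had 5.82, 6.87 and 6.64 against 4.97, 5.05 and 4.99. All sorted arrays of BUB3.2 lay above the meristems, and the difference of 1.44 log2 (SE 0.31) had an adjusted p of 0.0580. BUB3.2 was called under 6 of the 14 alternatives, among them without sorted replicate 1 (1.75 log2, adjusted p = 0.00780) and with the spike-in block (0.82 log2, 0.0325).

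The other loci of that list carry no symbol in the annotations used here. AT5G05510 rose by 1.70 log2 (SE 0.30, limma adjusted p = 0.0386; 0.166 with the replicate block) and AT1G69400 by 1.57 (SE 0.27, adjusted p = 0.0340; 0.170 with the block). AT1G03180 rose by 0.60 log2 (SE 0.11, adjusted p = 0.0443; 0.0856 with the block), less than the others. With the spike-in block BUB3.1 (adjusted p = 0.0120) was called like BUB3.2, and AT5G05510 (0.0906), AT1G69400 (0.0955) and AT1G03180 (0.154) were not. The same 3 loci lost their calls with the trended robust prior (0.0594, 0.0577 and 0.148). AT1G03180 was also not called with array weights per group (0.0818), with quantile normalization (0.0503) or without sorted replicate 2 (0.108). Of the 4 called genes, BUB3.1 included, none was called after removal of sorted replicate 3 or of a single meristem array, where their adjusted p ran from 0.0671 to 0.158.

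Aurora kinases act with partners that place and activate them. Of 6 listed partners 4 were measured, and 2 were called higher and 2 were not, against 4.44% of all probe sets called higher. All 4 had an unadjusted limma p under 0.05. In all 4 every sorted array lay above every meristem array, which held for 14.4% of all probe sets. WYR, the plant relative of the inner centromere protein INCENP, had 5.92, 6.56 and 6.40 in the sorted cells and 5.26, 5.43 and 5.53 in the meristems. The groups of WYR did not overlap, and its difference of 0.89 log2 (SE 0.20) had a limma adjusted p of 0.0660. WYR was called with the filter at the median (0.0143), with either centring (0.0449 and 0.0107) and without sorted replicate 1 (0.0220). AT4G22860 rose by 1.76 log2 (SE 0.21, limma adjusted p = 0.0141; 0.104 when blocked by replicate). Its sorted mean was 5.72 ± 0.37 and its meristem mean 3.96 ± 0.07 (SD, n = 3 each). AT4G14490 rose by 1.70 log2 (SE 0.26, adjusted p = 0.0264; 0.0825 with the block), with means of 7.21 ± 0.44 and 5.51 ± 0.18 (SD, n = 3 each). AT3G02400 differed by 0.65 log2 (SE 0.16) with an adjusted p of 0.0778, and was called with the filter (0.0225), with centring on reference genes (0.00970) and without sorted replicate 1 (0.0328). Both called genes lost their calls after removal of sorted replicate 3 or of a single meristem array (adjusted p from 0.0657 to 0.106). AT4G14490 was also not called with the spike-in block (0.0682).

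No kinetochore gene was called. Limma called 0 of the 5 measured among 11 listed, with 1 at an unadjusted p under 0.05 and a median difference of -0.13 log2. Over all probe sets 4.44% were called higher, so 0 of 5 does not set these genes apart from the table. HTR12, the centromeric histone H3 that marks where kinetochores form and is known as an Aurora substrate, had 5.19, 5.74 and 5.24 in the sorted cells and 5.63, 5.61 and 5.84 in the meristems. Its groups overlapped, with a difference of -0.30 log2 (SE 0.18, adjusted p = 0.426). AT3G54630 differed by 0.64 log2 (SE 0.18, adjusted p = 0.111), with every sorted array above every meristem array. It was called when only probe sets above the median were tested (0.0331), with centring on reference genes (0.0160) and without sorted replicate 1 (0.0374). AT3G48210 had 6.59, 7.41 and 7.15 in the sorted cells and 6.56, 6.27 and 6.59 in the meristems. Its groups met at 6.59, and its difference was 0.58 log2 (SE 0.25, adjusted p = 0.264).

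Of the anaphase-promoting complex, the ubiquitin ligase that the checkpoint holds back, 2 of 15 listed genes were measured and neither was called. Over all probe sets 4.44% were called higher. HBT, a CDC27 subunit, differed by 0.32 log2 (SE 0.16, limma adjusted p = 0.331). Its relative CDC27a differed by -0.10 log2 (SE 0.08, adjusted p = 0.585), and by 0.01 with centring on reference genes. FU, the FUSED kinase of phragmoplast expansion, was the measured gene among 13 listed mitotic kinases. It had 2 probe sets, of which the one with the higher mean was used and the other was not examined. On that probe set FU had 7.71, 8.22 and 7.86 in the sorted cells and 6.89, 6.50 and 6.49 in the meristems. FU rose by 1.303 log2 (SE 0.19, limma adjusted p = 0.0238; 0.151 when blocked by replicate). The spike-in block ended its call (0.101), and so did removal of sorted replicate 3 or of a single meristem array (0.0553 to 0.103).

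All 9 measured genes of the checkpoint and Aurora partner lists had their lowest sorted value in replicate 1 and their highest in replicate 2, as the 4 genes did. The order was not particular to them. It held for 14 of all 17 machinery genes, which include these 9, and for BBM and STZ, described last. Over all probe sets tested it held for 25.4%, and for 51.3% of those called higher. The differences of the 9, between 0.60 and 1.76 log2, lay below the 1.90 of AUR3.

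**Figure D4:**
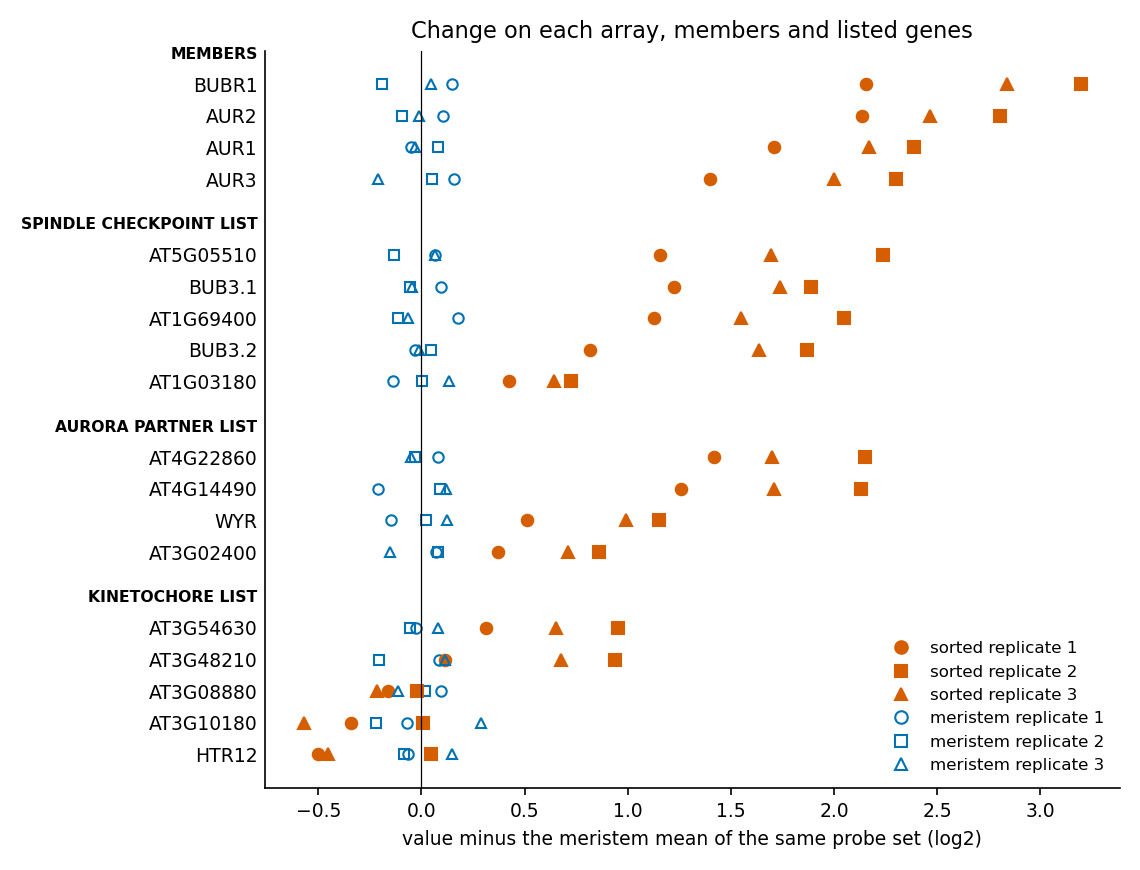
Value on each array minus the meristem mean of the same probe set (log2), for the 4 genes and for the measured genes of 3 lists, with sorted arrays in orange and meristems in blue. The 4 genes lie between 1.40 and 3.197 on the sorted arrays. The checkpoint and Aurora partner genes lie above the meristems on every sorted array, and 4 of the 5 kinetochore genes overlap them.

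The genes with the most similar profiles were sought among 7245 genes, by the root mean square distance over the 6 arrays between values taken relative to each gene's meristem mean. The nearest to AUR1 were AT4G21820 (distance 0.06 log2), AT1G11220 (0.09) and ZCF125 (0.10). AT4G21820 had 6.48, 7.33 and 7.02 in the sorted cells and 4.74, 4.88 and 4.83 in the meristems, a difference of 2.13 log2 (SE 0.24). The nearest to AUR2 were AT3G44050 (0.06), AT2G22610 (0.07) and AT5G55520 (0.08). AT3G44050 had 8.94, 9.45 and 9.26 against 6.83, 6.73 and 6.75, a difference of 2.45 log2 (SE 0.15).

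The first neighbours of AUR3 and BUBR1 lay farther off, at about 0.10. The nearest to AUR3 were AT4G17240 (0.10), AT5G65685 (0.11) and AT5G27550 (0.12). AT4G17240 had 5.56, 6.42 and 6.02 in the sorted cells and 4.47, 4.19 and 3.97 in the meristems. The nearest to BUBR1 were AT5G23910 (0.10), AT1G05440 (0.14) and 3xHMG-box1 (0.14), which binds condensed chromosomes. AT5G23910 had 6.05, 6.97 and 6.59 against 3.90, 3.82 and 3.81. Pearson's r over the 6 arrays was between 0.994 and 0.999 for these 12 genes. It mostly repeats the step between the groups, which all of them share.

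The 4 genes were not each other's nearest profiles. AUR3 and AUR1 were the closest pair at 0.19 log2, with 28 other genes nearer to AUR1 and 17 nearer to AUR3. BUBR1 and AUR2 were 0.23 log2 apart, and AUR2 and AUR1 0.29. BUBR1 and AUR3 were farthest apart at 0.61.

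Listed markers of the cortex, of the root meristem and of cell isolation stress were also compared between the same groups. Both loci of the cortex list were lower in the sorted cells. AT1G09750 fell by 4.52 log2 (limma adjusted p = 0.00512) and AT1G62500 fell by 0.79 log2 (adjusted p = 0.0191; 0.129 with the replicate block). The log2 of their summed level ran from 7.31 to 8.01 in the meristems and from 4.11 to 4.42 in the sorted cells. BBM, a transcription factor of the root meristem, was the 1 measured gene of 6 in its list and had 3.87, 4.84 and 4.60 in the sorted cells against 5.05, 5.41 and 5.27. The groups of BBM did not overlap, and the difference of -0.81 log2 (SE 0.30) had an adjusted p of 0.194. It was -1.37 with the spike-in block, where it was called (0.0363), and -0.52 without sorted replicate 1 (0.128). STZ, a zinc finger repressor of stress responses, was the 1 measured gene of 5 in the list of cell isolation stress. It had 7.72, 7.84 and 7.73 in the sorted cells and 2.30, 2.62 and 2.28 in the meristems, near the lowest value. STZ rose by 5.36 log2 (SE 0.11, limma adjusted p = 6.25e-04), more than any of the 4 genes. With the replicate block, where none of the 4 genes was called, it kept its call (adjusted p = 0.0263). Lists of endodermis, epidermis, root cap, vascular and shoot markers had no gene measured by a named probe set. The array may still hold them, since many of its probe sets are unnamed here. The part of these marker changes in the rise of the 4 genes was not tested.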

How the data were processed

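Each of the 6 RNA samples was hybridised to 1 array as biotin-labelled cRNA, per the labels. The deposited log2 values were made by the authors with GCRMA, per the submitters' processing notes; the version is not given in the sources used here. GCRMA corrects background from probe sequence and normalizes across arrays, which can compress differences near the lowest value. Of 22810 probe sets, 64 controls were left out. The platform annotation gave 1 gene for 13513 of the 22746 tested, several for 503, and 8730 are unnamed here; 13436 were matched to RefSeq (TAIR10.1, for names only). The files name no genome build, so no coordinates are given. Arrays have no read depth, and their number limits the precision.

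The groups were fitted with limma 3.58.1 in R 4.3.3 (lmFit, eBayes) over all 22746 probe sets, with Benjamini-Hochberg adjustment at 0.05, no filter and no further normalization. The fit was run on simulated data with independent normal noise of the same SD in both groups. That check does not cover the wider spread of the sorted arrays or an array order that many genes share. Pairs of genes were compared by exact permutation. The genes and lists were chosen with earlier results of these data known. Named list genes were the called ones (at most 4 per list) or, with none called, the 2 with the smallest p; BUB3.2, WYR and AT3G02400 were added after their values were seen. The 3 nearest profiles per gene were taken among genes with a sorted mean over 0.5 above the lowest value.

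Same-numbered arrays deviated together with correlations of 0.122, 0.249 and 0.106 over the 11503 probe sets above the median value (0.096, 0.195 and 0.074 over all). The labels do not say what the number marks. The blocked value is given beside each call of a listed gene that it ended. The alternatives were the replicate and spike-in blocks, a trended robust prior, array weights per group, a filter at the median, 2 centrings, quantile normalization and leaving out each array.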

Additional observations from a re-analysis of the deposited data

How the results depend on the processing

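The rise of AUR1, AUR2, AUR3 and BUBR1 kept its direction under all 14 alternatives run for each. With the replicate block the differences were 2.09, 2.47, 1.90 and 2.73 log2 and none was called by limma, while all 4 had an unadjusted p under 0.05. With 1 array left out they ran from 1.94 to 2.28 for AUR1, 2.30 to 2.64 for AUR2, 1.70 to 2.15 for AUR3 and 2.50 to 3.02 for BUBR1, and 2 to 4 of the 4 were called. A fit with 1 array fewer has fewer residual degrees of freedom. The number of probe sets called was 2614 as reported, 235 with the replicate block, 1249 with the trended robust prior, 4760 with centring on 6 reference genes and between 959 and 3383 with 1 array left out. That centring moved the median difference of probe sets above the median value from 0.02 to 0.14 log2, and 1 of the 6 reference genes, PEX4, was itself called lower (adjusted p = 0.0220; 0.0990 with the replicate block). It turned the split of 1009 higher and 1605 lower to 3021 higher and 1739 lower. Of the 17 machinery genes 7 were called higher as reported, against 4.44% of all probe sets. The count was 0 with the replicate block (0.347%), 4 with the trended robust prior (2.27%) and 3 with the spike-in block (7.17%). It was 11 with the filter at the median (14.3% of the probe sets in that fit) and 11 with centring on reference genes (13.3%). The share over the whole table thus rose in those fits too. With 1 array left out, between 0 and 11 were called (1.42% to 7.7%). Where 0 were called, 10 or 11 had an unadjusted p under 0.05. CDC27a turned from -0.10 to 0.013 log2 with centring on reference genes. The cause of these changes was not tested. The differences between pairs of genes kept their sign in every fit with 1 array left out. Over 34 other genes (the machinery genes, the markers, PEX4 and the nearest profiles), 353 values kept their direction and call, 104 lost a call and 17 gained one. No other probe set of AUR1, AUR2, AUR3 or BUBR1 alone was found, so that alternative gave no value.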
